A study of Mus musculus with 16 samples.

Results

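The 7 genes described here encode the protein parts of telomerase and the proteins that assemble and place it: Tert, Dkc1, Nop10, Nhp2, Gar1, Naf1 and Wrap53. They were taken by gene name from the count tables of all 16 libraries, and each name matched 1 row of the 39179 gene rows per library. The libraries are RNA-seq of neurons from the cortex or the hippocampus of adult mice, strain B6.129S6.SvEvTac, which the labels call TERT-AD, and the series sets neurons with activated Tert against controls. The 4 groups of 4 libraries were cortical neurons labelled control, cortical neurons labelled tamoxifen, hippocampal neurons labelled control and hippocampal neurons labelled tamoxifen. All 4 groups carry the TERT-AD name, and the treatment was tamoxifen or vehicle. The sources used here do not give the alleles behind that name, the promoter or cell type that drives them, the dose, the age beyond adult or the isolation of the neurons, nor do they state whether reads of an introduced Tert sequence are counted under the Tert row.

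Telomerase adds telomeric repeats to chromosome ends by reverse transcription. Tert is the reverse transcriptase and Terc the RNA that holds the template. In mammals Terc ends in an H/ACA domain bound by dyskerin (Dkc1), Nop10, Nhp2 and Gar1, the same proteins that bind the H/ACA guide RNAs of ribosomal and spliceosomal RNA modification. Naf1 stands in the place of Gar1 while the particle is assembled and is then exchanged for it, and Wrap53 (TCAB1) carries the finished RNA particle to Cajal bodies. Tert is known to be scarce in most adult tissues, whereas the H/ACA proteins are made in nearly all cells.

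The 300 bases around the annotated start of 4 members (250 before and 50 after it, RefSeq, GRCm38.p6) are shown because Tert differs from the 3 H/ACA genes in level and because the levels of Dkc1, Nhp2 and Gar1 did not overlap between the regions under one scaling. Capitals mark matches, on either strand, to the E-box CACGTG, the GC box GGGCGG, the ETS motif CCGGAAG and the CCAAT box CCAAT. The sequences run 5′ to 3′ on the strand of the gene, and the 1 overlap is in Nhp2, where a CCAAT box on the plus strand shares bases with one on the minus strand. Tert lies at chr13:73626661-73626960 on the plus strand, Dkc1 at chrX:75095604-75095903 on the plus strand, Nhp2 at chr11:51619523-51619822 on the plus strand and Gar1 at chr3:129831347-129831646 on the minus strand.
Tert: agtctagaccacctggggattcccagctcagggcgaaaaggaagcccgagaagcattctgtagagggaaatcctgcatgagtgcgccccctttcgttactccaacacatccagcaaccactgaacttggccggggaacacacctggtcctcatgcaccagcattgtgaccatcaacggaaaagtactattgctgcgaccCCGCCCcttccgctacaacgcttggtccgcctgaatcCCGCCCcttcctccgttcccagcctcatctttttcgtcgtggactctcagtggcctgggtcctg
Dkc1: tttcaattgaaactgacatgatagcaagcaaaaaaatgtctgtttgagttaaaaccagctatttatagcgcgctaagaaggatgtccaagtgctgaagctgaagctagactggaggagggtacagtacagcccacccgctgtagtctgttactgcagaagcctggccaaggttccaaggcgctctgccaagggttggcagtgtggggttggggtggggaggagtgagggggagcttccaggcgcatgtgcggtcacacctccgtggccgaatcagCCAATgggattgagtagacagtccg
Nhp2: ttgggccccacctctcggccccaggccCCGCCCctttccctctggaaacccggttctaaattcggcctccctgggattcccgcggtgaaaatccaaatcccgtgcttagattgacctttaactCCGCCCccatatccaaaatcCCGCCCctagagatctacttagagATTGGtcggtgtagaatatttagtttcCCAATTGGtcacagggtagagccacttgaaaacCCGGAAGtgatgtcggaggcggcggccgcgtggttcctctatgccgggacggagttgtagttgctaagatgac
Gar1: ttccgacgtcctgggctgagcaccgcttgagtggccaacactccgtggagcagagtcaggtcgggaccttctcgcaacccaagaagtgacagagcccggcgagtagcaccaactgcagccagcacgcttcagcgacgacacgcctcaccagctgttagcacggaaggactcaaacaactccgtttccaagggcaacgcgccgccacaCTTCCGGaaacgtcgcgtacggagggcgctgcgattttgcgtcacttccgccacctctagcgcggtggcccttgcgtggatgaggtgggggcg

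The Tert window held 2 GC boxes and none of the other 3 motifs, and 35.7% of the 32851 promoter windows of the same length held a GC box. The Nhp2 window held 7 matches, with 3 GC boxes, 1 ETS motif and 3 CCAAT boxes. Gar1 held 1 ETS motif and Dkc1 1 CCAAT box, which 8.86 and 37.4% of all windows held. The E-box, which 7.15% of all windows held, was found in 1 of the 7 member windows, a start of Wrap53. These are matches of letters only. GC content was 57.3% for Tert, 53% for Dkc1, 55.3% for Nhp2 and 63% for Gar1, against a median of 52.7% over all windows. The table matched 6 of the 7 members, and Nop10 and Wrap53 are described without their sequences.

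In mm10, as the files give it, Tert (ENSMUSG00000021611) spans 73627001 to 73649041 of chromosome 13 on the plus strand, with 3410 bases of exon. Dkc1 (ENSMUSG00000031403) lies on chromosome X from 75095854 to 75109777, Nop10 (ENSMUSG00000027133) on chromosome 2 from 112261926 to 112263269, and Nhp2 (ENSMUSG00000001056) on chromosome 11 from 51619735 to 51623714. Gar1 (ENSMUSG00000028010) lies on chromosome 3 from 129824912 to 129831396, Naf1 (ENSMUSG00000014907) on chromosome 8 from 66860217 to 66890564, and Wrap53 (ENSMUSG00000041346) on chromosome 11 from 69561758 to 69580255. The span of Nhp2 shares 44 bases with Rmnd5b and that of Dkc1 45 bases with Mpp1, each on the opposite strand, and whether the counting used strand is not known from the sources used here. Dkc1, Gar1, Naf1 and Nhp2 have near copies elsewhere in the genome with at least 90.8% identity over 365 to 1546 bases. The copies with a row in the files (Gm13776 for Dkc1 and Gm13350 for Gar1) held 0 to 4 counts per library. Whether reads shared with a copy were set aside as multiply aligned was not tested.

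Libraries held 33236178 to 57195203 counts in genes. Libraries 1 and 2 and libraries 3 and 4 of each group differed by 3.53 to 3.98 times the Poisson variance, against 6.22 to 19.1 times for other pairs of a group, and were summed to sample A and sample B, which leaves 8 samples, 2 per group. The labels do not say whether A and B are separate animals, so p-values reflect no more than the spread among these samples. All 6 excitatory markers were detected in every sample, with a summed level of 4933 to 8031 CPM (counts scaled to the sum of gene counts), but so were all 6 oligodendrocyte markers, at 24010 to 67320 CPM in cortex and 45790 to 72560 CPM in hippocampus. The cortical sample B labelled tamoxifen stood apart, where mitochondrial genes took 20.1 and 20.69% of the gene counts of its libraries and 29.68 to 32.08% in the remaining cortical ones. Its oligodendrocyte markers summed to 24010 CPM, where the remaining 3 samples from cortex had 52870 to 67320 CPM. Its 6 markers of inhibitory neurons summed to 245 CPM, where those 3 had 96.63 to 113.4 CPM. In such bulk samples, fewer cells that express a gene and less RNA per cell cannot be told apart.

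Tert was the least abundant member in every sample. It held 15 to 230 reads per library and 46 to 421 per sample. Per kilobase of exon, its level was 0.496 ± 0.317 reads per kb, scaled like CPM (SD, n = 8), between the 28.5th and the 48.5th percentile of the genes with counts in the same sample. The other 6 members stood at or above the 61.4th percentile in all 8 samples.

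Among the H/ACA proteins, Nhp2 was highest per kilobase at 12.4 ± 2.87 reads per kb, scaled like CPM, followed by Nop10 at 9.87 ± 2.09 (SD, n = 8 each), with Nhp2 above Nop10 in all 8 samples. Naf1 followed at 4.41 ± 1.33, Dkc1 at 3.31 ± 0.51, Wrap53 at 3.28 ± 0.70 and Gar1 at 3.18 ± 0.64 on the same scale. The last 3 levels lay within one another's spread. The place of Naf1 came from hippocampus: in cortex it stood at 0.835 to 1.24 times Dkc1 per kilobase, and in the cortical sample B labelled tamoxifen its level of 3.72 was under those of Dkc1, Gar1 and Wrap53. The genes of the 4 proteins that share 1 particle thus differed in reads per kilobase of annotated exon. Nhp2 stood 3.22 to 4.34 times and Nop10 2.55 to 3.41 times as high as Dkc1, whereas Gar1 stood at 0.795 to 1.07 times Dkc1. The exon length of a gene row need not be that of the transcripts expressed, which were not examined.

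Terc (ENSMUSG00000064796), a row of 422 bases on chromosome 3, had 5 reads in all 16 libraries together and 0 in 11 of them. A count of 0 allows a level of up to 3 counts, which is 0.0525 to 0.0903 CPM in these libraries, for counting error only. Other short RNAs were low as well: Rmrp had 0 to 3 reads per library and Rpph1 0 to 18, while Rn7sk had 48 to 177. The 47 rows of H/ACA guide RNAs summed to 155 to 287 reads per library, so few reads covered the RNA partners of the H/ACA proteins. Why these counts were low was not tested. These other RNAs were picked for comparison after their counts had been seen.

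**Figure D1:**
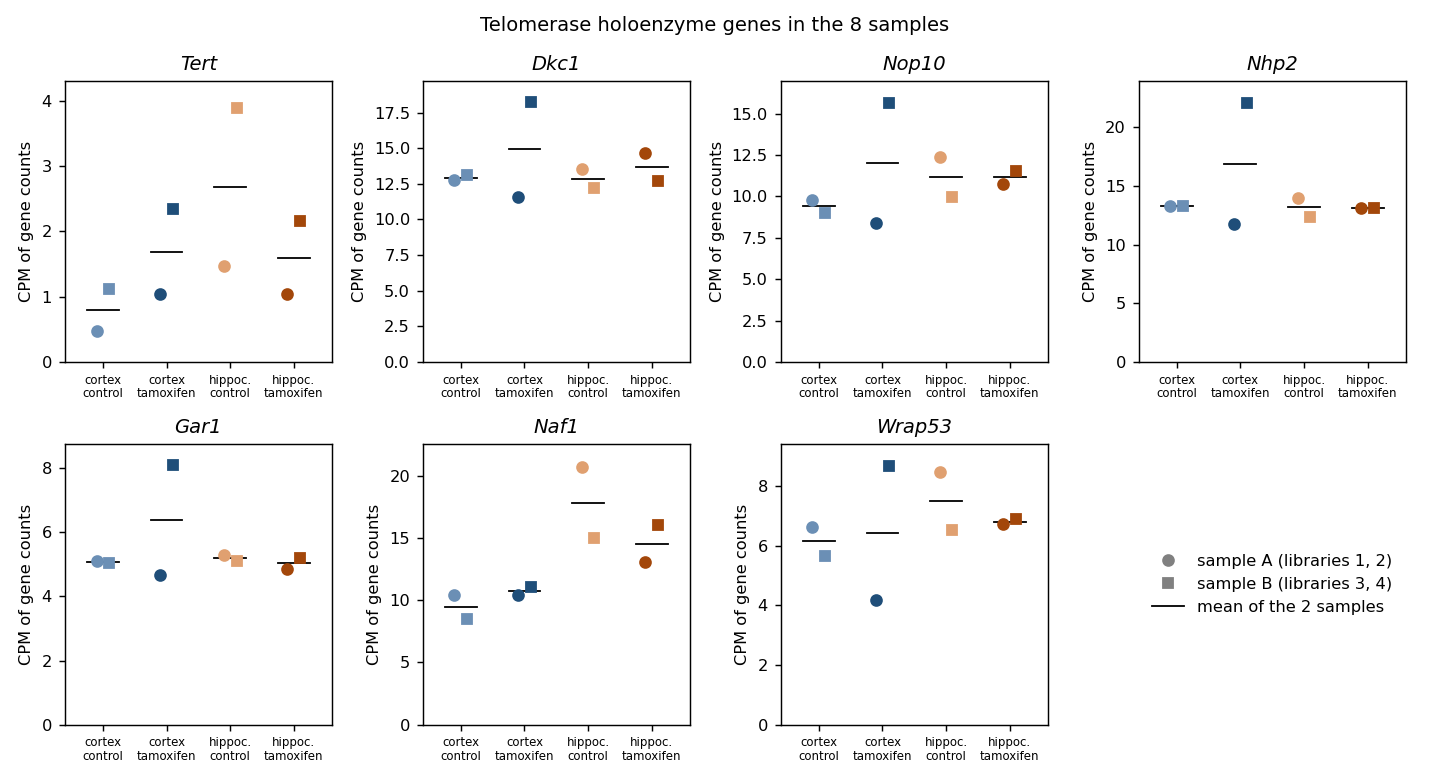
Level of each telomerase gene in CPM of gene counts (vertical axis, from 0) in the 4 groups (horizontal axis); circles are sample A, squares sample B and lines the mean of the 2 samples. Tert lies at 0.473 to 3.89 CPM with sample B above sample A in each group, the cortical sample B labelled tamoxifen is the highest for Dkc1, Nop10, Nhp2, Gar1 and Wrap53, and Naf1 is higher in all 4 hippocampal samples.

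Tert, the gene the treatment addresses, stood at 0.473 (A) and 1.11 CPM (B) in the cortical controls and at 1.04 and 2.34 CPM in the cortical samples labelled tamoxifen. In hippocampus it stood at 1.47 and 3.89 CPM in the controls and at 1.04 and 2.16 CPM in the samples labelled tamoxifen. The groups overlapped in both regions, and the highest of the 8 levels belonged to a hippocampal control. For counting error alone, 95% exact Poisson intervals were 0.346 to 0.630 CPM for cortical control A and 0.898 to 1.36 CPM for cortical control B, and 1.25 to 1.72 and 3.53 to 4.28 CPM for hippocampal controls A and B. These intervals are too narrow for a comparison of samples, since even neighbouring libraries differed by more than Poisson variance.

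Sample B exceeded sample A for Tert in all 4 groups, by 0.80 and 0.53 in the cortical and by 1.19 and 0.83 in the hippocampal groups on the log2(CPM + 0.5) scale with TMM library sizes (TMM scales samples on the assumption that most genes do not differ), in the order control, tamoxifen. The mean difference of 0.84 compares with a median of 0.29 among the 2427 genes whose mean level was within 2-fold of that of Tert, of which 6.8% differed by as much. On that scale B stood above A in all 4 groups for 920 of the 18074 genes tested (5.09%), Gar1 and Tert among the members. The other members varied less between A and B, from 0.12 for Dkc1 to 0.33 for Naf1. Tert thus had both the fewest reads and the widest spread within groups of the 7 genes.

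Dkc1, the pseudouridine synthase at the centre of the particle, stood at 12.8 and 13.1 CPM in the cortical controls, 11.6 and 18.3 CPM in the cortical samples labelled tamoxifen, 13.5 and 12.2 CPM in the hippocampal controls and 14.7 and 12.7 CPM in the hippocampal samples labelled tamoxifen. Nhp2, which binds Nop10 and the RNA, stood in the same order at 13.3 and 13.3, 11.8 and 22.1, 14.0 and 12.3, and 13.2 and 13.2 CPM. Of the 8 values of each gene, 7 lay close together and the cortical sample B labelled tamoxifen stood above them.

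Nop10, the small linker between Dkc1 and Nhp2, stood at 9.78 and 8.99, 8.37 and 15.6, 12.4 and 9.95, and 10.8 and 11.5 CPM in the same order of groups. Gar1, the subunit that joins last, stood at 5.10 and 5.05, 4.67 and 8.10, 5.28 and 5.11, and 4.86 and 5.20 CPM. Both genes were again highest in the cortical sample B labelled tamoxifen. That sample has the lowest mitochondrial share, and its TMM factor was 1.14 and those of the remaining cortical samples 0.826 to 0.866. With TMM library sizes the same sample had the highest cortical level of Dkc1 and Nhp2 as well, given with the comparison of the regions.

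Wrap53, the Cajal body factor, stood at 6.64 and 5.67 CPM in the cortical controls, 4.19 and 8.67 CPM in the cortical samples labelled tamoxifen, 8.49 and 6.54 CPM in the hippocampal controls and 6.72 and 6.89 CPM in the hippocampal samples labelled tamoxifen. Its lowest and its highest value both came from the cortical group labelled tamoxifen. Naf1, the assembly factor, stood in the same order at 10.4 and 8.47, 10.4 and 11.1, 20.7 and 15.0, and 13.1 and 16.1 CPM. Every hippocampal value of Naf1 exceeded every cortical one on this scale, as was so for 21.9% of all genes.

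The first question is whether the tamoxifen label went with another level of the telomerase genes. With TMM scaling, 0 of the 7 members passed the edgeR quasi-likelihood test at an adjusted p of 0.05 in cortex and 0 in hippocampus, and 0 of the 18074 genes tested did so in either region (0% of all genes). Without the cortical sample A labelled tamoxifen 2014 genes passed in cortex, and again 0 members. That fit sets sample B, which stands apart, alone against 2 controls and assumes that it varies like the other groups. Without adjustment, 0 of the 7 members had a p under 0.05 in cortex, hippocampus or the difference between the regions, against 4.97, 3.61 and 5.43% of all genes. With the sample letter as a replicate block these counts were 1, 0 and 1, against 3.71, 2.56 and 4.04% of all genes, and the 1 was Tert. Fits without the cortical sample A or B labelled tamoxifen leave 1 sample in that group, and their unadjusted p-values are not counted here. Over 20 alternative settings, these fits among them, the cortical log2 fold change was -0.136 to 0.347 for Nhp2 and -0.51 to 0.075 for Wrap53. DESeq2 also called 0 of the 7 members in the 3 contrasts, and 0.0297, 0.0297 and 0.0112% of the genes it tested. A limma voom fit that allows for the correlation of neighbouring libraries called 0 members, and 0.0896, 0.0179 and 0.669% of genes. With 2 samples per group, a p that misses the threshold does not show that levels were alike.

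For Tert, the log2 fold change with the tamoxifen label was 0.83 in cortex (SE 0.67, edgeR adjusted p = 0.834) and -0.72 in hippocampus (SE 0.65, edgeR adjusted p = 1). A two-sided exact permutation test on log2(CPM + 0.5) gave p = 0.667 in each region, and the smallest p that 2 against 2 samples allow is 0.333. The signs were opposite and both errors were about as large as the values. With the sample letter as a replicate block the errors were smaller, with 0.93 in cortex (SE 0.30, edgeR unadjusted p = 0.0207, adjusted p = 0.907) and -0.65 in hippocampus (SE 0.29, edgeR unadjusted p = 0.0653, adjusted p = 1). The letters follow the library numbers and were not taken to pair samples. Over all genes, deviations from group means correlated at -0.405 to 0.283 between same-letter samples. Without the block, leaving out 1 sample at a time gave 0.33 to 1.60 in cortex and -1.38 to 0.20 in hippocampus. The positive hippocampal value was that without hippocampal control sample B, the sample with the most Tert.

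The H/ACA proteins lay near 0 with much smaller errors. In cortex the log2 fold changes were -0.01 for Dkc1 (SE 0.13), 0.12 for Nop10 (SE 0.18), 0.11 for Nhp2 (SE 0.16) and 0.10 for Gar1 (SE 0.17), with edgeR adjusted p values of 0.884 to 0.982. In hippocampus they were 0.12 (SE 0.13), 0.03 (SE 0.18), 0.03 (SE 0.16) and -0.01 (SE 0.17), each with an edgeR adjusted p of 1. Dkc1 was the 1 member whose TMM levels did not overlap between the hippocampal groups, at 11.8 and 11.3 CPM in the controls and 13.2 and 11.98 CPM with the tamoxifen label, and 21% of all genes were separated upwards in this way. Without sample B labelled tamoxifen the cortical values of Nop10, Nhp2 and Gar1 were -0.12, -0.14 and -0.08. Scaled to the sum of gene counts, the cortical median of all genes was 0.25 in place of 0.04, and the value of Dkc1 was 0.21.

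Naf1 had a log2 fold change of 0.01 in cortex (SE 0.22, edgeR adjusted p = 0.991) and -0.25 in hippocampus (SE 0.21, edgeR adjusted p = 1). Wrap53 had -0.18 (SE 0.22, edgeR adjusted p = 0.865) and -0.10 (SE 0.22, edgeR adjusted p = 1). The 7 members had a median of 0.10 in cortex and -0.01 in hippocampus, beside 0.04 and -0.01 for all genes tested. Apart from Tert, all members lay between -0.25 and 0.12 on the log2 scale in both regions.

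**Figure D2:**
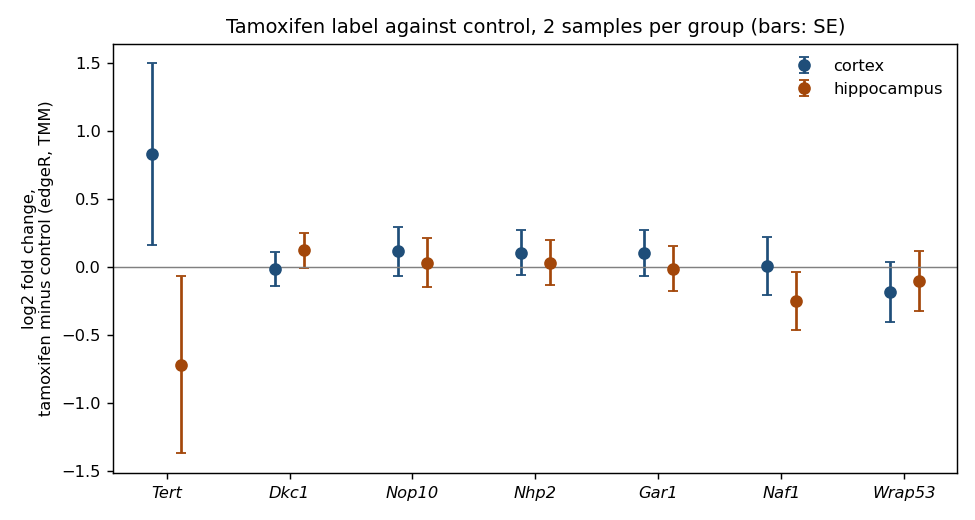
Log2 fold change with the tamoxifen label against control (vertical axis, edgeR with TMM scaling) for each telomerase gene in cortex (blue) and hippocampus (orange); bars are standard errors, with 2 samples per group. Tert lies at 0.83 in cortex and -0.72 in hippocampus with the longest bars, and the other 6 genes lie between -0.25 and 0.12; 0 of the 7 passed the test in either region.

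The second comparison set the 4 hippocampal against the 4 cortical samples, averaged over control and tamoxifen. The fit takes the 8 samples as independent, and the labels do not say whether both regions came from the same mice. Nhp2 and Dkc1 fell in hippocampus under TMM scaling, by 0.44 and 0.32 on the log2 scale. Gar1 had a value of the same size that just missed the threshold, and Naf1 had an opposite sign. In all 2 of the 7 members passed, both lower, where 9.94% of all genes passed lower and 8.42% higher (18.4% in all). The members had a median log2 difference of -0.18, beside 0.00 for all genes.

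Nhp2 stood at 15.4, 15.8, 14.2 and 19.4 CPM with TMM library sizes in cortex (control A and B, tamoxifen A and B) and at 12.3, 11.4, 11.8 and 12.4 CPM in hippocampus. Its log2 difference was -0.44 (SE 0.12, edgeR adjusted p = 0.0412). Dkc1 stood at 14.7, 15.6, 14.0 and 16.04 CPM in cortex and at 11.8, 11.3, 13.2 and 11.98 CPM in hippocampus, with a difference of -0.32 (SE 0.09, edgeR adjusted p = 0.0479). All 4 hippocampal samples lay under all 4 cortical ones for both genes.

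Gar1 stood at 5.89, 6.02, 5.65 and 7.11 CPM in cortex and at 4.63, 4.71, 4.37 and 4.90 CPM in hippocampus with TMM library sizes, a difference of -0.41 (SE 0.12, edgeR adjusted p = 0.0554). Its groups did not overlap either, so that 3 of the 7 members, Dkc1, Nhp2 and Gar1, were separated downwards, where 15.2% of all genes were. Nop10 overlapped between the regions, at 10.1 to 13.7 CPM in cortex and 9.18 to 10.9 CPM in hippocampus (-0.18, SE 0.13, edgeR adjusted p = 0.352). Wrap53 overlapped as well (-0.06, SE 0.16, edgeR adjusted p = 0.819).

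Naf1 stood at 12.1, 10.1, 12.6 and 9.73 CPM in cortex and at 18.1, 13.8, 11.7 and 15.1 CPM in hippocampus with TMM library sizes, a difference of 0.40 (SE 0.15, edgeR adjusted p = 0.112). On this scale 1 hippocampal sample, A labelled tamoxifen, lay within the cortical range. Tert had a difference of 0.61 (SE 0.47, edgeR adjusted p = 0.384), with a two-sided exact permutation p of 0.286 where 4 against 4 samples allow no p under 0.0286. Its levels overlapped, at 0.473 to 2.34 CPM of gene counts in cortex and 1.04 to 3.89 CPM in hippocampus.

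The calls between regions depended on the scaling. When samples were scaled to the sum of gene counts, the median of all genes moved to 0.27 towards hippocampus, and 17.2% of all genes passed higher and 3.01% lower. On that scale Naf1 passed (0.68, SE 0.17, edgeR adjusted p = 0.0258) as 1 of the 7 members, and its groups did not overlap, as for 21.9% of all genes in that direction. Nhp2 stood at -0.19 (edgeR adjusted p = 0.53), Dkc1 at -0.06 (edgeR adjusted p = 0.818) and Gar1 at -0.15 (edgeR adjusted p = 0.603), while Nop10 and Wrap53 were positive at 0.07 and 0.18.

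The calls also depended on single samples. Nhp2 and Dkc1 lost their calls without either cortical control, either hippocampal control or either hippocampal sample labelled tamoxifen, with edgeR adjusted p values of 0.107 to 0.158 and 0.0901 to 0.261, and both kept their sign. Without the cortical sample B labelled tamoxifen Nhp2 stood at -0.32 and Dkc1 at -0.27. Without the cortical sample A labelled tamoxifen Gar1 stood at -0.48 and Naf1 at 0.50. Each of these fits leaves 1 sample in a group. The share of all genes called also differed between them, so their calls of members are not compared. With the sample letter as a replicate block 0 members passed, with edgeR adjusted p values of 0.0673 for Nhp2 and 0.0879 for Dkc1.

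**Figure D3:**
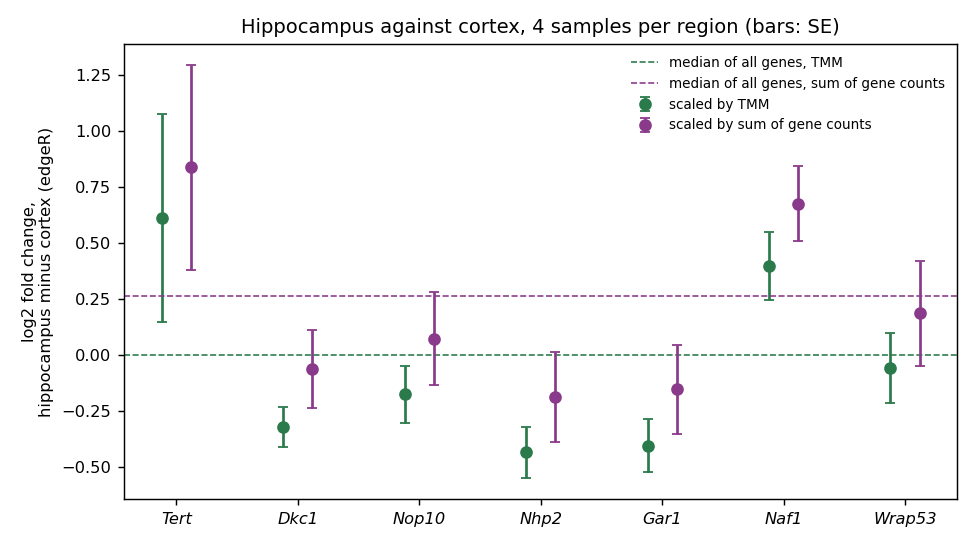
Log2 difference between hippocampus and cortex (vertical axis, edgeR) for each telomerase gene, scaled by TMM (green) or by the sum of gene counts (purple); points rest on 4 samples per region, bars are standard errors and dashed lines the median of all genes under each scaling. Every gene lies higher when scaled by the sum of gene counts, as does the median of all genes, and the sign of Nop10 and Wrap53 depends on the scale.

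Markers of cell types were also at different levels in the 2 regions. With TMM library sizes, the scale on which Nhp2 and Dkc1 passed, the 6 excitatory markers summed to 6509 to 7189 CPM in cortex and 4649 to 6392 CPM in hippocampus. The 6 inhibitory markers summed to 117 to 215.1 CPM and 58.93 to 96.5 CPM on that scale, so both neuronal sums were lower in hippocampus without overlap, as were Nhp2, Dkc1 and Gar1. In CPM of gene counts both neuronal sums overlapped. On that scale the 6 microglial markers summed to 495 to 665 CPM in cortex and 1079 to 1796 CPM in hippocampus, and the 4 markers of oligodendrocyte precursors to 90.2 to 170 CPM and 225 to 353 CPM, with all of them detected and no overlap between the regions on either scale. The 6 markers of dividing cells summed to 14.2 to 18.9 CPM in cortex and 20.3 to 29.2 CPM in hippocampus, most of it from Pcna and Mcm2, whereas with TMM library sizes the sums overlapped. Among them Ccnb1, a mitotic cyclin, was higher in cortex (0.360 to 0.685 against 0.0380 to 0.172 CPM), and Mki67 and Top2a overlapped. The 4 markers of choroid plexus ranged from 5.35 to 4993 CPM in cortex and from 46.3 to 16990 CPM in hippocampus, with overlap. Their part in the differences of Nhp2, Dkc1, Gar1 and Naf1 was not tested.

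A ratio of 2 genes in 1 sample does not depend on the scaling. Since Naf1 and Gar1 take the same place in the particle at different stages, Naf1 was set against Gar1, and 8 such ratios were computed after the levels had been seen, without a test. Per kilobase, Naf1 stood at 1.17 and 0.961 times Gar1 in the cortical controls and at 1.28 and 0.784 times in the cortical samples labelled tamoxifen. In hippocampus it stood at 2.24 and 1.68 times in the controls and at 1.54 and 1.77 times with the tamoxifen label. All 4 hippocampal ratios exceeded all 4 cortical ones, but so did the ratios to Gar1 of 40% of all other genes tested, and the separation is not particular to Naf1.

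The mean log2 ratio of Naf1 to Gar1 was 0.80 higher in hippocampus. It was 0.87 within the controls, 0.72 within the samples labelled tamoxifen, and 0.66 to 0.90 when 1 sample was left out. Naf1 to Nhp2 was likewise separated, at 0.192 to 0.339 in cortex and 0.380 to 0.566 in hippocampus, as were the ratios to Nhp2 of 40.3% of all other genes. Naf1 to Dkc1 (0.835 to 1.24 and 1.22 to 2.11) and Naf1 to Nop10 (0.263 to 0.462 and 0.450 to 0.620) overlapped, since sample A labelled tamoxifen of hippocampus lay just under sample A labelled tamoxifen of cortex, with hippocampus minus cortex at 0.72 and 0.57 on the log2 scale. Within the core the mean log2 ratios differed less between the regions, by -0.11 for Nhp2 to Dkc1, -0.08 for Gar1 to Dkc1 and 0.15 for Nop10 to Dkc1.

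**Figure D4:**
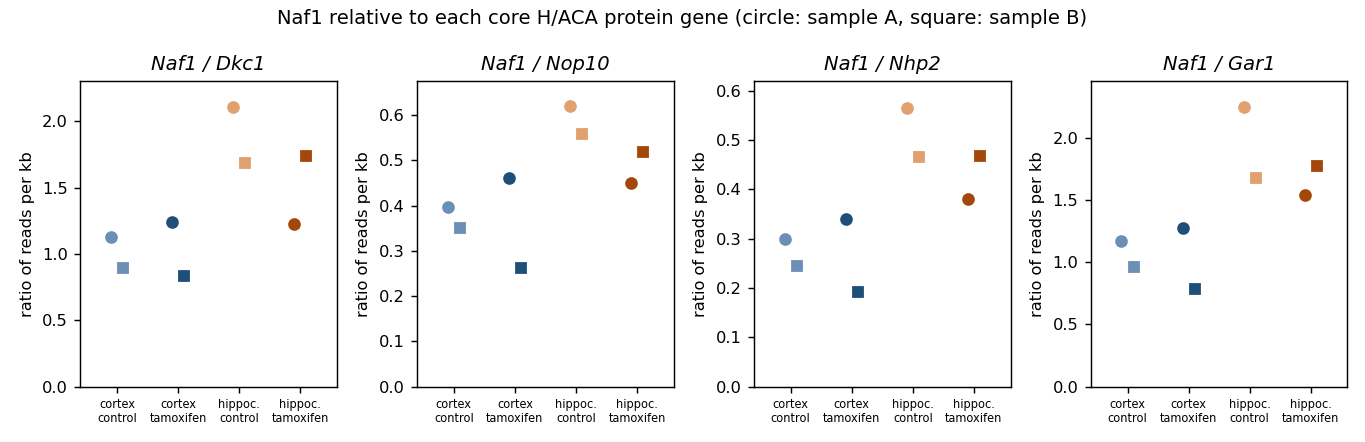
Ratio of Naf1 to each core H/ACA gene in reads per kilobase (vertical axes, from 0) in the 4 groups (horizontal axis); circles are sample A and squares sample B. The ratio to Gar1 lies at 0.784 to 1.28 in cortex and 1.54 to 2.24 in hippocampus and that to Nhp2 is also separated, while the ratios to Dkc1 and Nop10 overlap between the regions.

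The partners of these proteins were read in 6 lists: telomerase RNA maturation (10 of 11 entries tested), H/ACA assembly (6 of 6), Cajal body and Wrap53 folding (10 of 10), partners and brakes of Tert (11 of 11), box C/D proteins (4 of 4) and regulators of Tert transcription (17 of 18). With the tamoxifen label 0 of these genes passed the edgeR test in cortex, hippocampus or the difference between the regions. In the list of Cajal body proteins and of the chaperonin that folds Wrap53, 10 of 10 genes had positive log2 fold changes with the tamoxifen label in cortex, with a median of 0.17 beside 0.04 for all genes, of which 55.42% were positive. In hippocampus 1 of 10 was positive, with a median of -0.10 beside -0.01 for all genes, of which 48.71% were positive. The cortical count rested on sample B labelled tamoxifen: without it 5 of 10 were positive, with a median of 0.004. The hippocampal median was -0.045 without control sample A, with 3 of 10 positive, and -0.174 without control sample B. In the H/ACA assembly list 5 of 6 were positive in cortex and 2 of 6 in hippocampus, the latter being 4 of 6 with upper quartile factors and 5 of 6 without hippocampal control A.

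Between the regions, 1 of 10 tested genes for the maturation of telomerase RNA passed higher and 1 lower. Pabpn1, a poly(A) binding protein, fell by 0.41 (SE 0.08, edgeR adjusted p = 0.018), with 17.4 to 21.8 CPM in cortex and 14.3 to 15.2 CPM in hippocampus with TMM library sizes. Zcchc8, part of a complex that targets nuclear RNA to the exosome, rose by 0.40 (SE 0.08, edgeR adjusted p = 0.0224). Of the 6 assembly genes and the 10 Cajal body and folding genes, 0 passed. Of the 4 box C/D proteins, which bind the other class of guide RNAs, Nop58 fell by 0.43 (SE 0.10, edgeR adjusted p = 0.0279).

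Of the 11 partners and brakes of Tert, 1 passed: Tep1, a telomerase-associated protein that is also part of vault particles, rose by 0.78 in hippocampus (SE 0.16, edgeR adjusted p = 0.0207). Of the 17 tested regulators of Tert transcription, 3 passed higher and 1 lower. E2f1, a cell cycle transcription factor, fell by 1.19 (SE 0.18, edgeR adjusted p = 0.00926), from 10.7 to 16.3 CPM in cortex to 4.70 to 7.06 CPM in hippocampus with TMM library sizes. Trp53, which encodes the tumour suppressor p53, rose by 0.50 (SE 0.11, edgeR adjusted p = 0.0256) and Hif1a, the oxygen-regulated factor, by 0.60 (SE 0.15, edgeR adjusted p = 0.0321). Myc also rose, by 0.74 (SE 0.19, edgeR adjusted p = 0.0379). It lay beyond the limit of 3 genes per list, and its values under alternative settings are not given.

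The background for these counts is 8.42% of all genes higher and 9.94% lower. Leaving out each of the 8 samples in turn gave -1.35 to -1.022 for E2f1, 0.642 to 0.954 for Tep1 and 0.425 to 0.568 for Trp53. It gave 0.481 to 0.756 for Hif1a, -0.434 to -0.351 for Pabpn1, 0.372 to 0.468 for Zcchc8 and -0.499 to -0.342 for Nop58. Each of these fits leaves 1 sample in a group, and the share of all genes called differed between them. Their calls of partner genes are therefore not compared. Scaled to the sum of gene counts, Pabpn1 (-0.13) and Nop58 (-0.17) no longer passed, with edgeR adjusted p values of 0.52 and 0.532. With the replicate block Nop58, Trp53 and Hif1a no longer passed (edgeR adjusted p = 0.0549, 0.0530 and 0.0514), nor did Trp53 with limma voom and quality weights (adjusted p = 0.0533).

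The genes with profiles most like that of Tert over the 8 samples were Mcm6, Slc16a10, Slc38a2, Itgb3 and Gm13123, of 6989 genes compared by the root mean square difference of centred log2(CPM + 0.5). The differences were 0.32 for Mcm6, 0.33 for Slc16a10, 0.33 for Slc38a2, 0.34 for Itgb3 and 0.34 for Gm13123. Mcm6, a subunit of the replicative helicase, stood at 2.10 and 3.07, 2.22 and 4.15, 4.41 and 7.20, and 4.19 and 6.58 CPM in the order of groups used above. Sample B stood above sample A in each group for Mcm6, Slc38a2 and Gm13123, and under it in the hippocampal samples labelled tamoxifen for Slc16a10 and Itgb3. Of the 2 nearest genes on each side of Tert, Clptm1l had 922 to 2788 counts per library, while Slc6a3, Slc6a18 and Slc6a19 had 0 to 9.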

How the data were processed

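The submitters' processing notes name STAR, HTSeq and the build mm10; tool versions, annotation release and strand setting were not stated in these sources. RNA was extracted with Trizol, per the labels' protocols. The deposited values are whole-number counts per gene, not normalized, and beside them the authors' RPKM, which in 100% of values equals the count per kilobase of exon scaled to all counts of the library. RPKM entered no test. Multiply aligned reads (27.53 to 35.43% of all counts) and reads outside genes (3.65 to 7.93%) stayed out of library sizes and tests.

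CPM are counts scaled to the sum of gene counts, and levels per kilobase divide CPM by exon length. Libraries 1 and 2, and 3 and 4, of a group were summed. The 18074 genes left by filterByExpr were fitted in edgeR 4.0.16 (R 4.3.3) with TMM scaling, a mean per group over 8 samples and the robust quasi-likelihood test. Within a contrast the Benjamini-Hochberg adjustment covered every gene tested, and the threshold was 0.05. A standard error (SE) is the log2 fold change over the root of its F statistic. The label tamoxifen was set against control within each region, these effects against each other, and hippocampus against cortex. Alternatives used DESeq2 1.42.0, limma 3.58.1, other scalings, filters and replicate units, a sample block and each sample left out. Members, partner lists, markers and rules were chosen with earlier results of these data known. Partner genes named are those past the threshold, at most 3 per list and contrast by smallest p, with Myc given besides them. Genes like Tert had at least 0.5 times its standard deviation. Near copies were searched in GENCODE transcripts with blastn 2.17.0 and promoters read from RefSeq. The fit was tested on simulated data for the tamoxifen contrast in cortex. It recovered 19.2% of 99 genes changed 2-fold and 85.7% of 98 changed 8-fold, with 8 false calls among 17780 genes.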

Additional observations from a re-analysis of the deposited data

Results flagged for a closer look

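Tert and Naf1 were picked out because both samples labelled tamoxifen lay on one side of their control mean in cortex and on the other side in hippocampus, in CPM of gene counts. With TMM library sizes this did not hold for Naf1, whose cortical controls stood at 12.06 and 10.1 CPM and cortical samples labelled tamoxifen at 12.59 and 9.73 CPM. For Tert both cortical samples lay above and both hippocampal samples under their control mean on the log2(CPM + 0.5) scale. The difference of the effects, hippocampus minus cortex, was -1.55 on the log2 scale (SE 0.93, edgeR adjusted p = 0.912). With the replicate block, whose letters were not taken to pair samples, it was -1.58 (SE 0.41, edgeR unadjusted p = 0.00891, adjusted p = 0.998). For Naf1 the difference was -0.26 (SE 0.30, edgeR adjusted p = 0.952). Neither difference passed the edgeR test, and 0 of 18074 genes did. Of 20 alternative settings for the cortical Naf1 value, 11 gave a positive sign. Leaving out the hippocampal control sample B turned the hippocampal Tert value positive.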

How the results depend on the processing

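Of the 7 members 0 passed with the tamoxifen label under any of the alternatives, and values near 0 changed sign. Scaled to the sum of gene counts, cortical Dkc1 was 0.208 and Wrap53 0.064, hippocampal Nop10 -0.004 and Nhp2 -0.001, the differences of effects -0.117 for Dkc1 and -0.207 for Wrap53, and the regional values 0.072 for Nop10 and 0.185 for Wrap53. Cortical Naf1 was -0.004 with RLE factors, -0.030 with upper quartile factors, -0.025 with limma voom and correlated libraries, -0.003 with DESeq2, -0.011 with limma voom and quality weights and -0.005 with only the 2 groups compared. Cortical Dkc1 was 0.008 with 16 libraries in edgeR, hippocampal Gar1 0.029 with upper quartile factors and 0.002 with only the 2 groups, and the differences of effects 0.001 for Nop10 and 0.011 for Nhp2 with upper quartile factors. Leaving out 1 sample gave, in cortex, -0.116 to 0.078 for Dkc1, -0.122 to 0.316 for Nop10, -0.136 to 0.310 for Nhp2, -0.076 to 0.255 for Gar1, -0.190 to 0.183 for Naf1 and -0.510 to 0.075 for Wrap53. In hippocampus it gave -1.382 to 0.202 for Tert, -0.083 to 0.159 for Nop10, -0.020 to 0.088 for Nhp2, -0.104 to 0.068 for Gar1 and -0.248 to 0.053 for Wrap53. For the difference of effects it gave -0.282 to 0.156 for Nop10, -0.276 to 0.170 for Nhp2, -0.267 to 0.064 for Gar1 and -0.180 to 0.405 for Wrap53, and between regions -0.188 to 0.104 for Wrap53. The cause of these changes was not tested.

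Between regions 2 members passed, where 8.42% of all genes passed higher and 9.94% lower. With RLE factors 1 passed (8.51 and 9.57% of all genes), and 1 scaled to gene counts (17.2 and 3.01%). Without a count filter 1 passed (5.51 and 6%), and 1 with limma voom and quality weights (6.49 and 9.76%). With 16 libraries in edgeR 4 passed (25.5 and 25.1%). Calls also changed when 1 sample was left out. With the replicate block (sample letter) 0 members and 2110 of all genes passed. Deviations from group means correlated between same-letter samples at -0.405 to 0.283, so the letters were not taken to pair samples. Over all genes, 16 libraries in edgeR called 562 in cortex, 318 in hippocampus, 867 for the difference and 8480 between regions, limma voom with correlated libraries 15, 3, 112 and 5029, and DESeq2 8, 8 and 3 in the first 3 of these. The fit of 16 libraries in edgeR takes the libraries as independent, whereas neighbouring libraries correlated at 0.736 in limma voom. Its p-values therefore do not measure the spread among samples. Without a count filter 1 gene was called in cortex. Leaving out 1 sample gave 0 to 2014 calls in cortex, the highest without cortical sample A labelled tamoxifen, and 369 to 6144 between regions. Tert is limited by its 15 to 230 reads per library and Terc by its 5 reads in all.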
